A study of Homo sapiens with 6 samples.

Results

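Interferon-stimulated genes are the genes that cells switch on when interferon, an antiviral cytokine, binds its receptor. The set described here held 50 such genes, chosen by symbol from well-known members and found by gene name in the deposited tables, which held 26286 genes in all. All 50 were in the tables, where the RNA sensor RIGI stands under its older symbol DDX58. They were followed in HT-1080 cells, a human fibrosarcoma line of mesenchymal origin that carries an activating NRAS mutation. Cells had been kept for 48 h in 2 µM palbociclib, in 500 nM pimasertib or in the solvent DMSO alone, with 2 libraries per group and 6 in all. Palbociclib blocks the cell cycle kinases CDK4 and CDK6, and pimasertib blocks MEK1 and MEK2, the kinases directly above ERK. All 3 groups came from the same cell line in the same serum-containing medium, and the labels name no added interferon and no virus, so the study is 1 line at 1 dose of each drug and 1 time. The series asks how growth-arresting compounds change gene expression, and the comparisons below ask it of the interferon-stimulated genes.

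Type I interferons bind the receptor pair IFNAR1 and IFNAR2, whose kinases JAK1 and TYK2 phosphorylate STAT proteins, among them STAT2. STAT2 and IRF9 are parts of the factor ISGF3, which binds the interferon-stimulated response element in front of its target genes, while interferon gamma acts through a different element. The proteins made sense viral RNA, degrade it, block its translation or stop viruses at membranes, and many of them feed back on the pathway itself. Tumour cells often hold some of these genes at a measurable level with no interferon added.

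The response element is the sequence feature these genes are known to share, and the promoters of 3 neighbouring IFIT genes are shown because they carry it, while IFIT1 and IFIT3 were called below and IFIT5 was not. The sequences are from RefSeq on build GRCh38.p14, plus strand, each running 300 bases from 250 bases before a gene start. Capitals mark the letters GAAA, any 2 bases and GAAA again, which appear here in reverse as TTTC, 2 bases and TTTC. IFIT1 is shown at chr10:89392373-89392672, IFIT3 at its upstream start at chr10:89327747-89328046 and its downstream start at chr10:89332279-89332578, and IFIT5 at chr10:89414318-89414617.
IFIT1: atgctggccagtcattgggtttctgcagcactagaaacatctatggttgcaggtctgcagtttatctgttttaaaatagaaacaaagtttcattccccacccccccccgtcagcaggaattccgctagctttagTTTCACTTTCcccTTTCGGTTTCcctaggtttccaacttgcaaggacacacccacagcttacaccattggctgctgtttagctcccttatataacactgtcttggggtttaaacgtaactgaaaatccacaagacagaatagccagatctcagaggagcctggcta
IFIT3 upstream start: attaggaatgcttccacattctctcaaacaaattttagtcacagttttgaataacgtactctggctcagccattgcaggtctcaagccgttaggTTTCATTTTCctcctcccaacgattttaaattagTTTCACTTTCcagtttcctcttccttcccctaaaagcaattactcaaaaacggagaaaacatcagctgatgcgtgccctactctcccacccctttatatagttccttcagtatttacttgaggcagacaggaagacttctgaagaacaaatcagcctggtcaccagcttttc
IFIT3 downstream start: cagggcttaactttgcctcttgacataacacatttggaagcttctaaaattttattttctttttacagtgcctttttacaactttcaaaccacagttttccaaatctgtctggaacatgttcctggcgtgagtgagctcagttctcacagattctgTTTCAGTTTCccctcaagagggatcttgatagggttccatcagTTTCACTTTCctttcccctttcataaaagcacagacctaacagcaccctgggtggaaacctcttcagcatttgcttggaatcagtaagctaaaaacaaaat
IFIT5: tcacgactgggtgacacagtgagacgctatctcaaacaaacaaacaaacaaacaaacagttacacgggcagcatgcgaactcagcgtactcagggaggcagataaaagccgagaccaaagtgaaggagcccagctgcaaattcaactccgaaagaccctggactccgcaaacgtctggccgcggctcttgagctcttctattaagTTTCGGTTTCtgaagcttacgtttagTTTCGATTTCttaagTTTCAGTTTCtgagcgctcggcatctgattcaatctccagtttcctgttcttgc

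The windows of IFIT1 and of each IFIT3 start held 2 matches, and that of IFIT5 held 3, the last of them across the gene start. RefSeq promoters were matched for 40 of the 50 genes, and 27 of these 40 (67.5%) held a match on either strand. Among all 27305 genes of the promoter table the share was 4.38%. The letters TTCNNNGAA, which read the same on both strands and mark the element of the interferon gamma response, were in 11 of 40 members (27.5%) and in 9.38% of all genes. Matches of the 2 kinds stood in the same gene in 6 members and overlapped in 5 of them. The response-element matches numbered 51 in 31 windows, 48 of them began before the gene start, and the median began at -93 bases. Some windows overlap, as for IFI27, for IFI44 and for PARP9 with DTX3L, so a site can be counted more than once. Of the members that rose in pimasertib, 16 of the 23 with a promoter (69.6%) held the element, against 9 of the 14 (64.3%) tested members that were not called there. Of the 16, BST2, IFITM1 and RSAD2 were tested only because of their counts in pimasertib. PARP9 of the 16 and DTX3L of the 9 share a match where their windows overlap. A match is a string of letters and not a measured binding site.

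**Figure D1:**
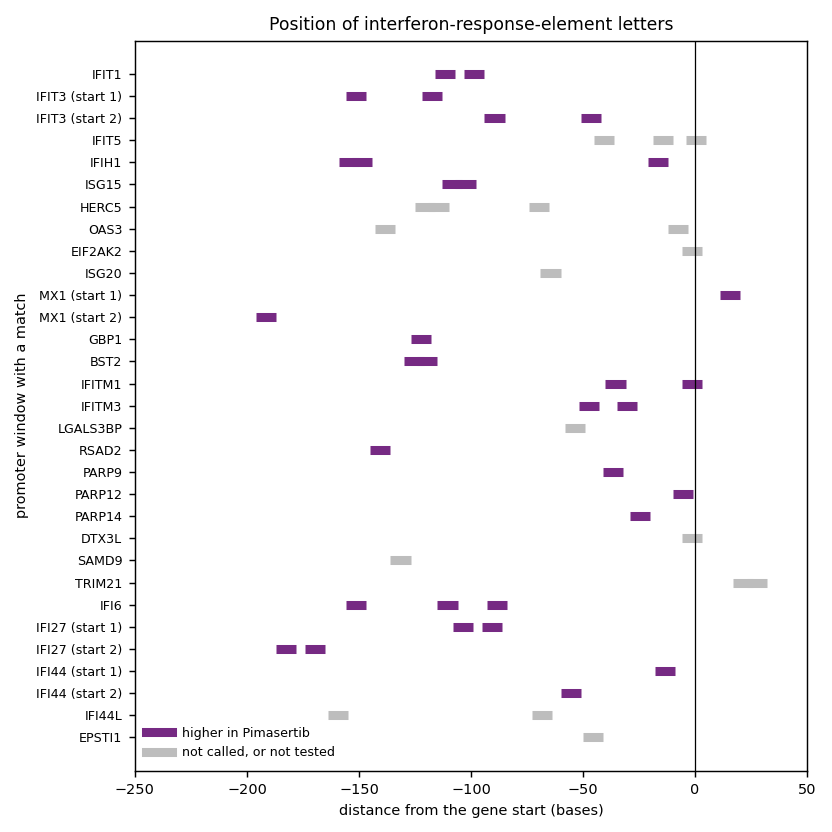
Position of the response-element letters (GAAA, any 2 bases, GAAA, either strand) relative to the gene start, in bases, for the 31 promoter windows that hold them. Purple bars are genes higher in pimasertib than in DMSO and grey bars are genes not called or not tested; 48 of 51 matches begin left of the gene start, and purple and grey bars are mixed along the axis.

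Levels are given as CPM, read counts relative to the scaled size of each library, with both libraries of a group in the order replicate 1, replicate 2. Library totals ran from 13607490 to 17500655 counts, and 3 counts in a library were worth 0.168 to 0.220 CPM. Fold changes are log2 with their standard error, and adjusted p is that of edgeR's quasi-likelihood test, two-sided, corrected by Benjamini-Hochberg over 14839 genes, with a call at an adjusted p under 0.05. The origin of the 2 numbered replicates is not stated, whether from 2 cultures or 1, so the p-values reflect only how far these libraries spread, and that spread may be technical. In bulk RNA, more cells with a transcript and more transcript per cell cannot be told apart. The 8 mesenchymal markers (VIM, FN1 and others) summed to 2951 to 5197 CPM in the 6 libraries. Markers of leukocytes summed to 1.42 to 3.14 CPM, those of endothelium to 0.807 to 2.07 CPM and those of epithelium to 1.90 to 13.9 CPM, the highest in palbociclib replicate 2. The mitochondrial share of counts was 3.21% to 8.76% and was higher in replicate 2 of each group. A call printed with no remark on a library stayed past the threshold whichever of the 6 libraries was dropped.

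Most of the tested interferon-stimulated genes were called higher in pimasertib than in DMSO, and few were called in palbociclib. The median change in palbociclib was smaller than in pimasertib but also lay above that of all tested genes. Of the 50 genes, 47 had enough counts to be tested. In pimasertib, 30 of the 47 were higher than in DMSO and 0 were lower, where 11.1% of all tested genes were higher and 11.7% lower. In palbociclib, 5 of the 47 were higher than in DMSO and 0 were lower, where 1.11% of all genes were higher and 2.44% lower. The median log2 fold change over the 47 was 0.43 in palbociclib and 1.34 in pimasertib, beside 0.0049 and 0.0047 over all tested genes. Calls in either direction made up 3.54% of genes in palbociclib against DMSO and 22.8% in pimasertib against DMSO, so pimasertib had more calls among genes in general. MX2, BST2, IFITM1 and RSAD2 would not have reached the count minimum without the pimasertib libraries, and such genes could hardly fail to differ. Without these 4, 26 of 43 tested members were higher in pimasertib, with a median of 1.20, and both pimasertib libraries lay above both DMSO libraries for 33.

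The libraries themselves showed the same order. Summed over the 50 genes, the level was 1634.7 and 1798.0 CPM in palbociclib, 2583.7 and 2683.4 CPM in pimasertib and 1383.2 and 1404.5 CPM in DMSO. ADAR, LGALS3BP and EIF2AK2 made up much of these sums. Without them the sums were 915.5 and 968.8 CPM in palbociclib, 1706.4 and 1641.8 CPM in pimasertib and 684.2 and 712.6 CPM in DMSO, and the groups did not overlap on either sum. Both pimasertib libraries lay above both DMSO libraries for 37 of the 47 tested genes and below them for 1, against 31.6% and 32.6% of all genes. Both palbociclib libraries lay above DMSO for 23 and below for 2, against 23.5% and 23.3% of all genes. A positive log2 fold change was found for 41 genes in pimasertib, against 50.3% of all genes, and for 37 genes in palbociclib, against 50.4%. Without MX2, BST2, IFITM1 and RSAD2, it was found for 37 of 43 in pimasertib and 34 of 43 in palbociclib. Both palbociclib libraries then lay above DMSO for 22 and below for 2.

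**Figure D2:**
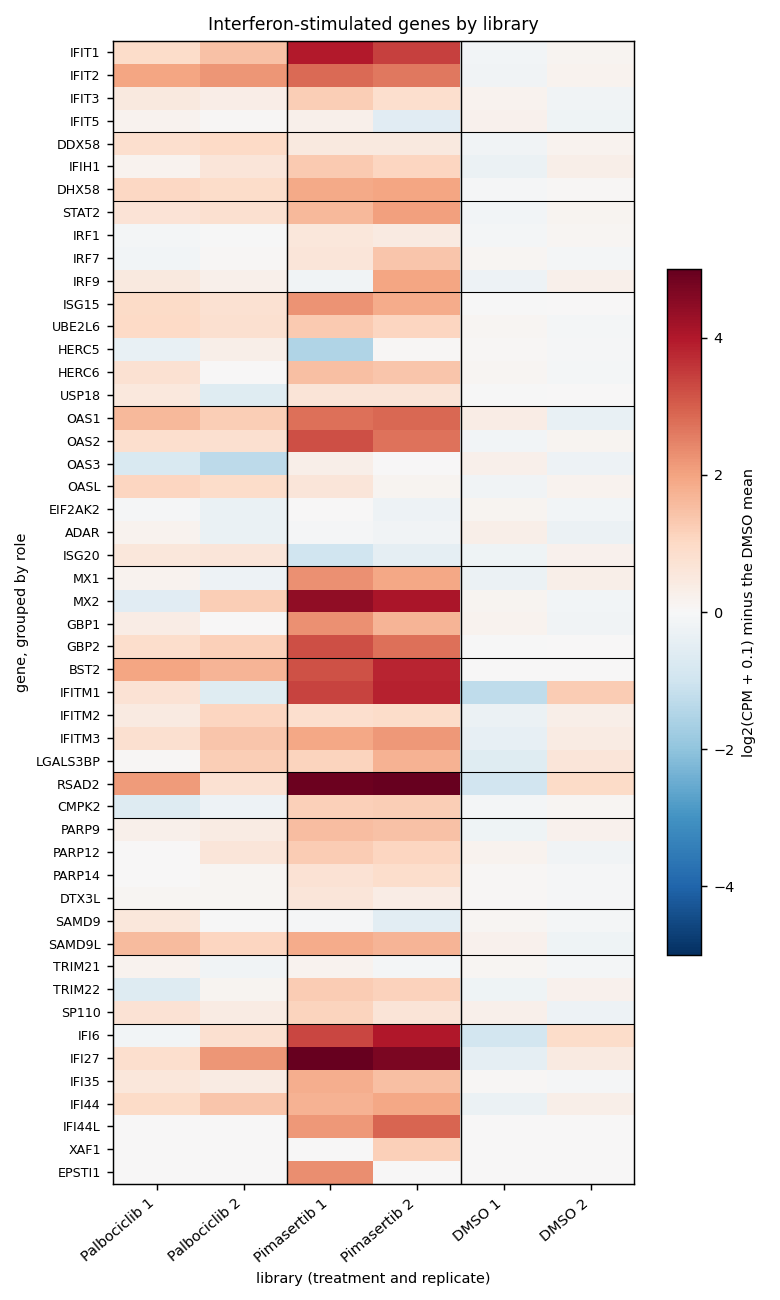
Level of each of the 50 genes in each library, as log2(CPM + 0.1) minus the mean of the 2 DMSO libraries, with genes in rows grouped by role and libraries in columns. The pimasertib columns are red for most rows, while the palbociclib columns are pale apart from IFIT2, RSAD2, BST2, SAMD9L and a few others, and the ADAR, EIF2AK2, TRIM21 and IFIT5 rows are pale throughout.

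IFIT genes code for proteins with tetratricopeptide repeats that bind viral RNA and block its translation. IFIT1, which holds RNA lacking the cap methylation of host messages (ENSG00000185745, GRCh37 chromosome 10, 91152303 to 91163745, plus strand), was at 3.74 and 5.60 CPM in palbociclib, 32.4 and 22.1 CPM in pimasertib and 1.76 and 2.16 CPM in DMSO. The 3 groups did not overlap, and pimasertib was the highest. The log2 fold change was 3.79 in pimasertib against DMSO (SE 0.34; adjusted p = 7.87e-05) and 1.26 in palbociclib against DMSO (SE 0.34; adjusted p = 0.0763), which did not pass. IFIT2, an RNA-binding partner of IFIT1 and IFIT3 (ENSG00000119922, 91061712 to 91069033), was at 7.99 and 9.46 CPM in palbociclib, 14.6 and 12.5 CPM in pimasertib and 1.70 and 2.23 CPM in DMSO. Both drugs set it above both DMSO libraries, by 2.15 in palbociclib (SE 0.31; adjusted p = 0.00392) and by 2.79 in pimasertib (SE 0.31; adjusted p = 0.000251). Palbociclib stood 0.64 below pimasertib on the log2 scale (SE 0.28; adjusted p = 0.186).

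IFIT3, which stabilises the IFIT1 complex, rose less, with 35.8 and 27.7 CPM in pimasertib, against 17.3 and 13.7 CPM in DMSO. The log2 fold change was 1.03 (SE 0.23; adjusted p = 0.0108), and without pimasertib replicate 1 the adjusted p was 0.0876. IFIT5, which binds other RNA ends, was at 23.5 and 22.0 CPM in palbociclib, 25.1 and 14.2 CPM in pimasertib and 24.1 and 18.3 CPM in DMSO, and all groups overlapped. IFIT1, IFIT2 and IFIT3 lie inside the span of LIPA, a lysosomal lipase gene on the other strand, and the strand setting of the counting is not known here. LIPA had 665 and 1684 counts in palbociclib, 2221 and 2186 in pimasertib and 504 and 1070 in DMSO, and its part in the IFIT values was not tested.

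Cytosolic sensors start the response when they meet double-stranded RNA. DHX58, the regulator LGP2 of the other sensors, was at 4.55 and 4.20 CPM in palbociclib, 8.41 and 8.80 CPM in pimasertib and 2.07 and 2.30 CPM in DMSO. The pairs were close and did not overlap, with a log2 fold change of 1.98 in pimasertib (SE 0.33; adjusted p = 0.00230), while palbociclib did not pass (adjusted p = 0.139). IFIH1, the sensor MDA5 of long double-stranded RNA, was at 15.8 and 13.6 CPM in pimasertib, against 5.23 and 7.71 CPM in DMSO. It rose by 1.19 (SE 0.29; adjusted p = 0.0165), a call that ended without DMSO replicate 1 (adjusted p = 0.114), pimasertib replicate 1 (0.0996) or pimasertib replicate 2 (0.0745).

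DDX58, the sensor RIG-I of short RNA with a triphosphate end, had the opposite order of drugs. It was at 47.0 and 52.6 CPM in palbociclib, 36.8 and 37.5 CPM in pimasertib and 23.6 and 29.4 CPM in DMSO. It was the 1 member called in palbociclib and not in pimasertib, with a log2 fold change of 0.91 in palbociclib (SE 0.20; adjusted p = 0.0375) and 0.49 in pimasertib (SE 0.20; adjusted p = 0.111). The direct difference between the drugs was 0.42 (SE 0.20; adjusted p = 0.224) and did not pass. The palbociclib call held without DMSO replicate 2 only; without the other libraries the adjusted p was 0.0525 (palbociclib replicate 1) to 0.208 (DMSO replicate 1), with 0.123 without palbociclib replicate 2, 0.0800 without pimasertib replicate 1 and 0.0770 without pimasertib replicate 2.

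Of the 4 transcription factors in the set, STAT2 was the 1 called. STAT2, the ISGF3 subunit specific to type I and III interferon, was at 60.4 and 66.6 CPM in palbociclib, 116 and 155 CPM in pimasertib and 34.0 and 42.1 CPM in DMSO. All 3 groups were apart, and the log2 fold change was 1.83 in pimasertib (SE 0.23; adjusted p = 0.000493) and 0.74 in palbociclib (SE 0.22; adjusted p = 0.112). IRF7, which amplifies interferon production, was at 4.78 and 8.15 CPM in pimasertib, against 3.28 and 2.91 CPM in DMSO, with 1.06 (SE 0.38; adjusted p = 0.0719). IRF1, a main factor of the interferon gamma response, was at 42.1 and 38.7 CPM in pimasertib, against 26.6 and 29.8 CPM in DMSO, with 0.52 (SE 0.20; adjusted p = 0.0809). Neither passed, although both pimasertib libraries lay above DMSO for each, and each passed in 3 of 14 alternative fits. IRF9, the DNA-binding part of ISGF3, had 12 and 13 counts in palbociclib, 9 and 41 in pimasertib and 8 and 11 in DMSO, so pimasertib replicate 2 alone stood out. The IRF9 span lies inside that of RNF31 on the same strand, which had 0 and 24 counts in palbociclib, 6 and 41 in pimasertib and 14 and 6 in DMSO, and its part in the IRF9 values was not tested.

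ISG15 is a small protein that is joined to other proteins as ubiquitin is, with UBE2L6 as the conjugating enzyme, HERC5 as the main ligase and USP18 as the protease that removes it. ISG15 (ENSG00000187608, GRCh37 chromosome 1, 948803 to 949920, plus strand) was at 14.3 and 12.3 CPM in palbociclib, 34.7 and 26.2 CPM in pimasertib and 7.11 and 7.37 CPM in DMSO. The groups were apart, with a log2 fold change of 2.07 in pimasertib (SE 0.25; adjusted p = 0.000373) and 0.88 in palbociclib (SE 0.24; adjusted p = 0.0848). UBE2L6 was at 53.2 and 46.0 CPM in palbociclib, 65.2 and 56.1 CPM in pimasertib and 28.6 and 24.6 CPM in DMSO. It was called in both drugs, at 0.90 in palbociclib (SE 0.21; adjusted p = 0.0405) and 1.19 in pimasertib (SE 0.21; adjusted p = 0.00293). The palbociclib call rested on all 6 libraries, since without any 1 of them the adjusted p was 0.0515 to 0.147, highest without palbociclib replicate 1 and lowest without palbociclib replicate 2.

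Of the ligases, HERC6 was called and HERC5 was not. HERC6, a relative of HERC5, was at 22.1 and 13.4 CPM in palbociclib, 37.4 and 35.0 CPM in pimasertib and 14.2 and 12.2 CPM in DMSO, and rose by 1.45 in pimasertib (SE 0.26; adjusted p = 0.00375). HERC5, its neighbour on chromosome 4, had 10 and 22 counts in palbociclib, 5 and 16 in pimasertib and 17 and 14 in DMSO, and no group stood apart. USP18, which also blocks the receptor, was at 2.93 and 1.29 CPM in palbociclib, 3.23 and 3.23 CPM in pimasertib and 2.01 and 2.03 CPM in DMSO, with a log2 fold change of 0.68 in pimasertib (SE 0.50; adjusted p = 0.357).

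The oligoadenylate synthetases make the messenger that activates RNase L, and 2 of the 3 rose in pimasertib. OAS1 was at 1.91 and 1.40 CPM in palbociclib, 4.32 and 4.59 CPM in pimasertib and 0.729 and 0.406 CPM in DMSO, a log2 fold change of 2.95 in pimasertib (SE 0.54; adjusted p = 0.00389). OAS2 was at 6.01 and 5.88 CPM in palbociclib, 31.9 and 22.1 CPM in pimasertib and 2.98 and 3.72 CPM in DMSO, a log2 fold change of 3.01 in pimasertib (SE 0.29; adjusted p = 0.000115). Pimasertib was highest for both of these, and for OAS2 the groups were wide apart. OAS3, which lies between OAS1 and OAS2 on chromosome 12 (GRCh37, 113376157 to 113411054, plus strand), was at 24.1 and 16.6 CPM in palbociclib, 50.7 and 41.8 CPM in pimasertib and 49.6 and 34.1 CPM in DMSO. Pimasertib and DMSO overlapped, and palbociclib lay below both. Its log2 fold change was 0.14 in pimasertib (SE 0.26; adjusted p = 0.718) and -1.04 in palbociclib against DMSO (SE 0.26; adjusted p = 0.0583), and the difference between palbociclib and pimasertib was -1.19 (SE 0.26; adjusted p = 0.0175). The last call ended without palbociclib replicate 2 (adjusted p = 0.0543), pimasertib replicate 1 (0.128) or pimasertib replicate 2 (0.0753). The palbociclib fall against DMSO passed with DESeq2 (adjusted p = 0.0177), without DMSO replicate 2 (0.00568) and without palbociclib replicate 1 (0.0203).

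No other double-stranded RNA enzyme of the set was called against DMSO. EIF2AK2, the kinase PKR that halts translation, was at 104 and 86.3 CPM in palbociclib, 110 and 92.7 CPM in pimasertib and 120 and 99.6 CPM in DMSO. ADAR, which edits adenosine in such RNA, was at 424 and 302 CPM in palbociclib, 362 and 333 CPM in pimasertib and 458 and 309 CPM in DMSO. Both overlapped in all groups. OASL, an oligoadenylate synthetase-like protein without the enzyme activity, had 20 and 23 counts in palbociclib, 18 and 11 in pimasertib and 9 and 11 in DMSO. ISG20, an RNA exonuclease, was the 1 member with both pimasertib libraries below both DMSO libraries, at 14.1 and 14.4 CPM in palbociclib, 4.73 and 7.05 CPM in pimasertib and 8.26 and 11.1 CPM in DMSO. Neither drug passed against DMSO, at 0.56 in palbociclib (SE 0.29; adjusted p = 0.340) and -0.72 in pimasertib (SE 0.29; adjusted p = 0.105). The difference between palbociclib and pimasertib was 1.28 (SE 0.29; adjusted p = 0.0217), a call that ended without pimasertib replicate 1 (0.160) or replicate 2 (0.0644).

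Of the 4 antiviral GTPases, MX1, GBP1 and GBP2 rose in pimasertib, and MX2 also passed but entered the test only through the pimasertib libraries. MX1, which traps viral nucleocapsids, was at 4.11 and 3.02 CPM in palbociclib, 17.7 and 14.1 CPM in pimasertib and 2.92 and 4.46 CPM in DMSO. Palbociclib and DMSO overlapped and pimasertib lay above both, by 2.11 against DMSO (SE 0.33; adjusted p = 0.00164). MX2, which acts at the nuclear pore, had 1 and 9 counts in palbociclib, 95 and 66 in pimasertib and 3 and 2 in DMSO, a log2 fold change of 4.87 in pimasertib (SE 0.80; adjusted p = 0.00222) that rests on 5 DMSO counts.

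Guanylate-binding proteins attack the compartments in which microbes live and are strongly driven by interferon gamma. GBP1 was at 26.3 and 20.8 CPM in palbociclib, 99.9 and 65.98 CPM in pimasertib and 22.8 and 18.1 CPM in DMSO, and rose by 2.02 in pimasertib (SE 0.26; adjusted p = 0.000551), while palbociclib overlapped DMSO. GBP2, next to it on chromosome 1 (ENSG00000162645, GRCh37, 89571815 to 89616139, minus strand), was at 14.8 and 18.2 CPM in palbociclib, 74.7 and 54.1 CPM in pimasertib and 7.90 and 8.12 CPM in DMSO. No groups overlapped, and it was the 1 member called in all 3 comparisons, at 1.05 in palbociclib (SE 0.24; adjusted p = 0.0405), 3.01 in pimasertib (SE 0.25; adjusted p = 5.6e-05) and -1.96 for palbociclib against pimasertib (SE 0.23; adjusted p = 0.000559). The palbociclib call held without palbociclib replicate 1 and ended when DMSO replicate 1 (adjusted p = 0.108), DMSO replicate 2 (0.0536) or palbociclib replicate 2 (0.133) was left out. It also ended without either pimasertib library (0.0666 and 0.0586) and with limma-voom (0.0775).

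**Figure D3:**
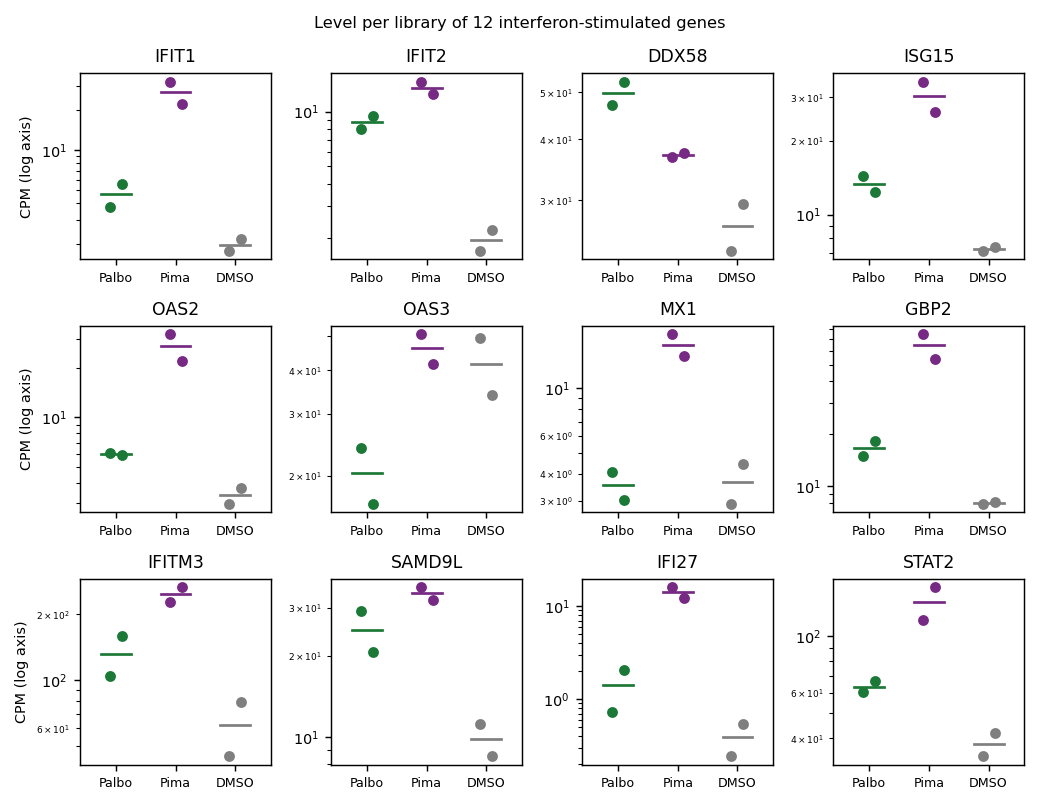
CPM of 12 interferon-stimulated genes on log axes, with a point for each library (replicate 1 left, replicate 2 right) and a line at the mean of the 2 libraries for palbociclib (Palbo), pimasertib (Pima) and DMSO. The mean is highest in pimasertib in every panel but DDX58, where palbociclib is highest, and in the OAS3 panel palbociclib lies below both other groups.

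IFITM proteins sit in membranes and stop viruses from fusing. IFITM3, the most abundant of them on the FPKM scale, was at 104 and 158 CPM in palbociclib, 227 and 266 CPM in pimasertib and 44.7 and 79.5 CPM in DMSO. The 3 groups did not overlap, and it rose by 1.99 in pimasertib (SE 0.31; adjusted p = 0.00179), while the 1.08 of palbociclib did not pass (SE 0.31; adjusted p = 0.0930). IFITM2 was at 36.4 and 56.1 CPM in palbociclib, 47.5 and 49.9 CPM in pimasertib and 21.5 and 32.5 CPM in DMSO, so the drugs overlapped each other and lay above DMSO. Its rise in pimasertib of 0.85 (SE 0.27; adjusted p = 0.0426) ended without DMSO replicate 1 (0.239), pimasertib replicate 1 (0.128) or pimasertib replicate 2 (0.188). IFITM1 had 4 and 1 counts in palbociclib, 41 and 52 in pimasertib and 0 and 7 in DMSO. It reached the count minimum only with the pimasertib libraries, so it could hardly fail to differ. Its rise of 3.59 (SE 1.08; adjusted p = 0.0374) ended without DMSO replicate 1 (0.114), pimasertib replicate 1 (0.116) or pimasertib replicate 2 (0.210), and with upper-quartile scaling (0.0524). The value itself was 2.58 without DMSO replicate 1 and 8.53 without DMSO replicate 2, so its size rests on the DMSO counts. The 3 proteins are close relatives, and IFITM1 lies within the span of IFITM2 on the same strand, so how reads were split among them is uncertain.

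BST2, or tetherin, which holds budding viruses on the cell surface, had 4 and 4 counts in palbociclib, 14 and 20 in pimasertib and 0 and 0 in DMSO. Set against 3 counts per DMSO library it was at least 5.45-fold higher in pimasertib (adjusted p = 0.0137), a call that ended without pimasertib replicate 1 (0.0577) or replicate 2 (0.109). LGALS3BP, a secreted glycoprotein that binds galectins, was at 192 and 441 CPM in palbociclib, 406 and 616 CPM in pimasertib and 121 and 283 CPM in DMSO. Replicate 2 was higher in every group, and the log2 fold change in pimasertib was 1.34 (SE 0.45; adjusted p = 0.0579). It passed in 7 of 14 alternative fits, among them limma-voom (adjusted p = 0.0446) and the fit on 4 libraries (0.0173). The 4 largest log2 fold changes in pimasertib, of BST2, RSAD2, IFI27 and MX2, were of genes with at most 12 counts in the 2 DMSO libraries together. BST2, RSAD2 and MX2 also reached the count minimum only with the pimasertib libraries, so they could hardly fail to differ. RSAD2, or viperin, which makes a chain-terminating nucleotide, had 10 and 4 counts in palbociclib, 98 and 96 in pimasertib and 0 and 4 in DMSO, a log2 fold change of 5.43 in pimasertib (SE 0.90; adjusted p = 0.00235). It was 4.41 without DMSO replicate 1 and 9.58 without DMSO replicate 2, both past the threshold, so the size is poorly fixed. CMPK2, a mitochondrial nucleotide kinase whose gene overlaps the start of RSAD2, was at 1.10 and 1.46 CPM in palbociclib, 4.15 and 4.27 CPM in pimasertib and 1.64 and 1.89 CPM in DMSO. It did not pass in pimasertib (1.25, SE 0.45; adjusted p = 0.0685).

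PARP9 and its partner DTX3L form a ubiquitin ligase complex, and PARP14 and PARP12 also attach ADP-ribose. PARP9 was at 21.9 and 24.8 CPM in palbociclib, 53.9 and 51.6 CPM in pimasertib and 15.8 and 21.8 CPM in DMSO, and rose by 1.49 in pimasertib (SE 0.22; adjusted p = 0.00130). DTX3L, which shares 340 bases with PARP9 on the opposite strand, was at 86.2 and 85.5 CPM in palbociclib, 122 and 102 CPM in pimasertib and 83.7 and 76.2 CPM in DMSO, a log2 fold change of 0.49 in pimasertib that did not pass (SE 0.20; adjusted p = 0.106). PARP14 rose by 0.81 in pimasertib (SE 0.20; adjusted p = 0.0146) and PARP12 by 1.16 (SE 0.27; adjusted p = 0.0139). The PARP14 call ended without DMSO replicate 1 (0.0518), pimasertib replicate 1 (0.0506) or pimasertib replicate 2 (0.0930), and the PARP12 call without pimasertib replicate 1 (0.0901) or replicate 2 (0.0651).

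SAMD9 and SAMD9L are neighbouring genes of chromosome 7 whose products restrict poxviruses and slow cell growth. SAMD9L was at 29.3 and 20.6 CPM in palbociclib, 35.8 and 32.0 CPM in pimasertib and 11.2 and 8.52 CPM in DMSO. Both drugs lay above DMSO, by 1.33 in palbociclib (SE 0.25; adjusted p = 0.0174) and 1.78 in pimasertib (SE 0.26; adjusted p = 0.00106). The palbociclib call ended without palbociclib replicate 1 (0.0557) or pimasertib replicate 1 (0.0510). SAMD9 was at 61.1 and 41.5 CPM in palbociclib, 39.7 and 28.7 CPM in pimasertib and 45.1 and 38.6 CPM in DMSO, and both drugs overlapped DMSO.

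Among the TRIM proteins, TRIM22, a nuclear antiviral ligase, was at 20.2 and 35.1 CPM in palbociclib, 77.9 and 71.6 CPM in pimasertib and 27.6 and 37.3 CPM in DMSO. It rose by 1.20 in pimasertib (SE 0.27; adjusted p = 0.0113), which ended without pimasertib replicate 1 (0.0724) or replicate 2 (0.0663), and it lies within the span of TRIM5. TRIM21, a cytosolic antibody receptor, was at 22.7 and 18.0 CPM in palbociclib, 22.7 and 18.95 CPM in pimasertib and 21.7 and 18.7 CPM in DMSO. Its groups overlapped throughout. SP110, a nuclear body protein, rose by 0.88 in pimasertib (SE 0.26; adjusted p = 0.0336), which ended without DMSO replicate 2 (0.126), pimasertib replicate 1 (0.205) or pimasertib replicate 2 (0.0620).

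The genes named IFI, for interferon-inducible, held some of the largest changes. IFI6, a membrane protein of the endoplasmic reticulum that limits flaviviruses, was at 5.21 and 9.97 CPM in palbociclib, 59.0 and 93.3 CPM in pimasertib and 2.98 and 11.0 CPM in DMSO. Palbociclib overlapped DMSO, and pimasertib was 3.45 above it (SE 0.52; adjusted p = 0.00141), or 2.79 without DMSO replicate 1 and 4.67 without DMSO replicate 2. IFI27, a small hydrophobic protein, had 10 and 37 counts in palbociclib, 279 and 190 in pimasertib and 4 and 8 in DMSO, a log2 fold change of 5.17 in pimasertib (SE 0.56; adjusted p = 0.000230), 5.82 without DMSO replicate 2, and 1.87 in palbociclib (SE 0.60; adjusted p = 0.132).

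IFI35 and IFI44 rose in pimasertib by 1.69 (SE 0.22; adjusted p = 0.000665) and 1.83 (SE 0.33; adjusted p = 0.00369). IFI44 was at 6.01 and 8.06 CPM in palbociclib, 10.3 and 11.6 CPM in pimasertib and 2.43 and 3.72 CPM in DMSO, with the 3 groups apart. The 3 genes that could not be tested had almost no reads. IFI44L had 6 and 10 counts in pimasertib and 0 in the other 4 libraries, at least 2.58-fold higher than 3 counts per DMSO library. EPSTI1 had 7 and 0 counts in pimasertib, and XAF1, a gene tied to cell death, had 0 and 2, with 0 in the other 4 libraries for both.

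**Figure D4:**
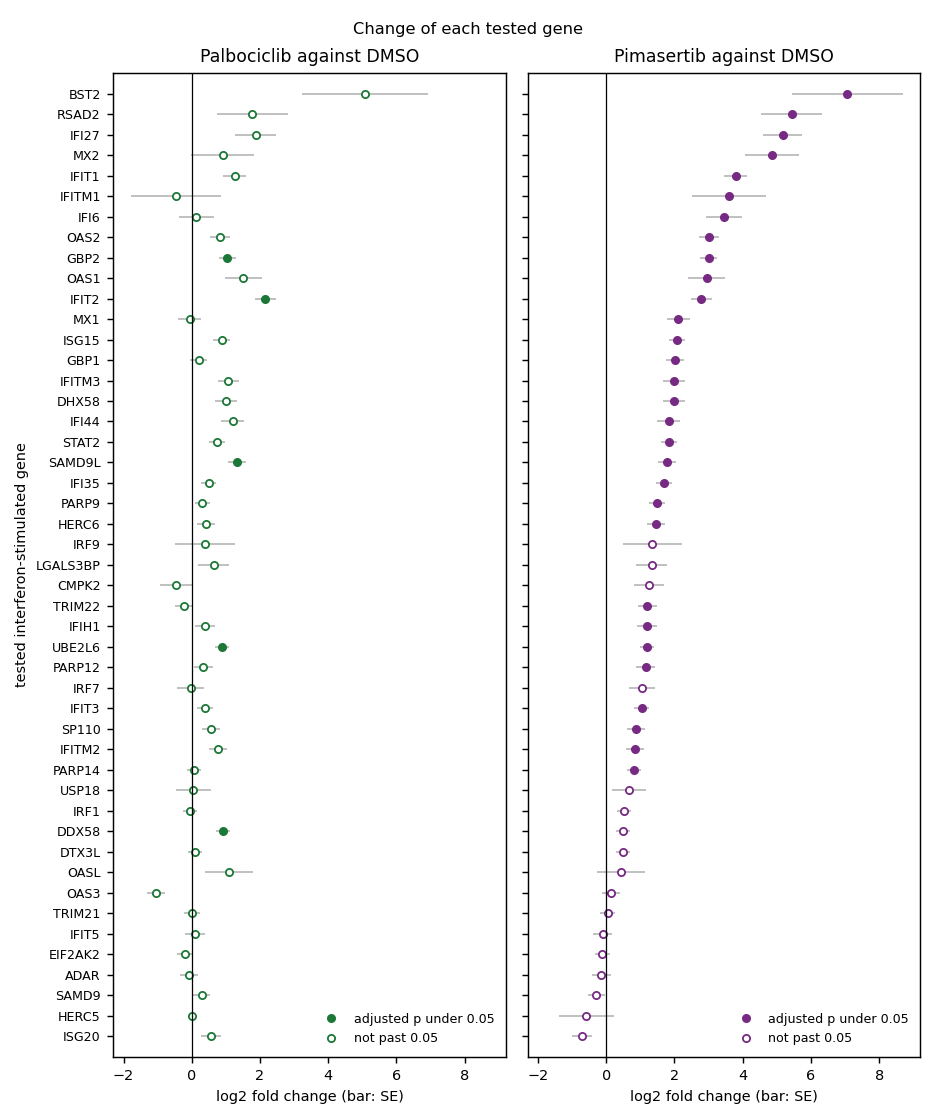
Log2 fold change against DMSO for the 47 tested genes in palbociclib (left) and pimasertib (right), in the order of the pimasertib change, with bars of 1 standard error. Filled points passed an adjusted p under 0.05 (5 in palbociclib, 30 in pimasertib); HERC5 has no bar in palbociclib because its fold change was near 0.

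Palbociclib raised 5 members past the threshold, IFIT2, SAMD9L, DDX58, UBE2L6 and GBP2, and IFIT2 was the 1 whose call held in every alternative. At an unadjusted p under 0.05, 16 members were higher in palbociclib and 1 was lower, and the share of all genes at that threshold was not counted. The count moved with the fit, to 9 calls with DESeq2, 4 with limma-voom and 2 when the pimasertib libraries were left out of the fit. DESeq2 added IFITM3 (adjusted p = 0.00848), IFIT1 (0.0423) and STAT2 (0.0475) as higher and OAS3 (0.0177) as lower. Among all genes, DESeq2 called 331 higher and 503 lower of 13036. Of 14839 genes, limma-voom called 131 higher and 363 lower, and the fit without pimasertib 72 higher and 278 lower. In the authors' deposited table, 5 members were higher (1.41% of all genes with an adjusted p) and 1, OAS3, was lower (3.45% of genes). Of its 5, 4 were called here too, IFITM3 was in the authors' table only, and GBP2 was called here only. For pimasertib the authors' deposited table had 30 members higher (11.4% of genes), the same 30 as here, and 0 lower (11.2% of genes).

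Set directly against pimasertib, palbociclib was lower for 18 members and higher for 1, ISG20. Among all tested genes 5.07% were lower and 4.31% higher, 9.39% in either direction. The median log2 difference was -0.91, beside -0.0164 over all genes. Both palbociclib libraries lay below both pimasertib libraries for 34 members and above for 4, against 28.8% and 27.7% of all genes, and 7 members had a positive difference, against 48.9%. Without the 4 members that reached the count minimum through pimasertib, 16 of 43 were lower and 1 higher, the median was -0.80, and both palbociclib libraries lay below both pimasertib libraries for 30. The 18 were IFIT1, STAT2, ISG15, HERC6, OAS2, OAS3, MX1, MX2, GBP1, GBP2, RSAD2, CMPK2, PARP9, PARP14, TRIM22, IFI6, IFI27 and IFI35. OAS2 differed by -2.18 (SE 0.28; adjusted p = 0.000810), IFI27 by -3.30 (SE 0.48; adjusted p = 0.00181; -4.26 without palbociclib replicate 2) and MX1 by -2.16 (SE 0.33; adjusted p = 0.00240). Together with IFIT1, GBP1 and GBP2 these were the 6 whose call held in every fit tried. Fewer calls held when either pimasertib library was left out, so many rested on having both, and calls among all tested genes also became fewer. Among the calls that ended were STAT2 without palbociclib replicate 1 (adjusted p = 0.0653) or pimasertib replicate 2 (0.130), ISG15 without pimasertib replicate 1 (0.110) and IFI6 without pimasertib replicate 2 (0.0516). IFI35 ended without pimasertib replicate 1 (0.0778). Without palbociclib replicate 1 or replicate 2, the difference was -3.25 or -5.91 for MX2 and -4.68 or -3.00 for RSAD2, so their sizes rest on few palbociclib counts. MX2, RSAD2, PARP9 and TRIM22 ended without pimasertib replicate 1 (0.0964, 0.108, 0.0658 and 0.0761) and without replicate 2 (0.0660, 0.147, 0.0655 and 0.0697). HERC6 ended without palbociclib replicate 2 (0.129), pimasertib replicate 1 (0.160) or pimasertib replicate 2 (0.163). CMPK2 and PARP14 ended without any 1 of the 4 drug libraries, at 0.0574 to 0.231 and 0.0903 to 0.256, and CMPK2 also with DESeq2 (0.0507).

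Read by pattern, 11 members rose in pimasertib with no call in the other comparisons, 15 rose in pimasertib and were lower in palbociclib than in pimasertib, and 3 rose in both drugs with no call between them. The 11 include BST2 and IFITM1 and the 15 include MX2 and RSAD2, which reached the count minimum only with the pimasertib libraries. GBP2 and DDX58 each had a pattern of their own, OAS3, CMPK2 and ISG20 were called only between the drugs, and 13 were called in none of the 3 comparisons. The palbociclib and pimasertib comparisons share the DMSO libraries, so their values are set side by side without a test of likeness. The 13 were IFIT5, IRF1, IRF7, IRF9, HERC5, USP18, OASL, EIF2AK2, ADAR, LGALS3BP, DTX3L, SAMD9 and TRIM21. A missed threshold does not show that a gene was unaffected, some of the 13 passed in alternative fits, and IRF7, IRF1, LGALS3BP, DTX3L and USP18 had both pimasertib libraries above DMSO. The same held for 31.6% of all tested genes, so that alone does not set these genes apart.

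Levels can be compared between genes on the deposited FPKM scale, which divides by length. In DMSO the highest members were LGALS3BP at a mean of 82.6 FPKM, IFITM3 at 75.5, ADAR at 56.9 and IFITM2 at 40.2. In pimasertib IFITM3 led at 306 FPKM, then LGALS3BP at 212 and IFI6 at 90.5, and IFI6 took rank 3 of the members there, against rank 14 at 8.18 FPKM in DMSO. In palbociclib IFITM3 led at 164 FPKM, with LGALS3BP at 133. The number of members above 1 FPKM was 37 and 35 in palbociclib, 42 and 45 in pimasertib and 31 and 32 in DMSO. Members with 0 counts numbered 3 and 3 in palbociclib, 1 and 1 in pimasertib and 6 and 4 in DMSO.

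**Figure D5:**
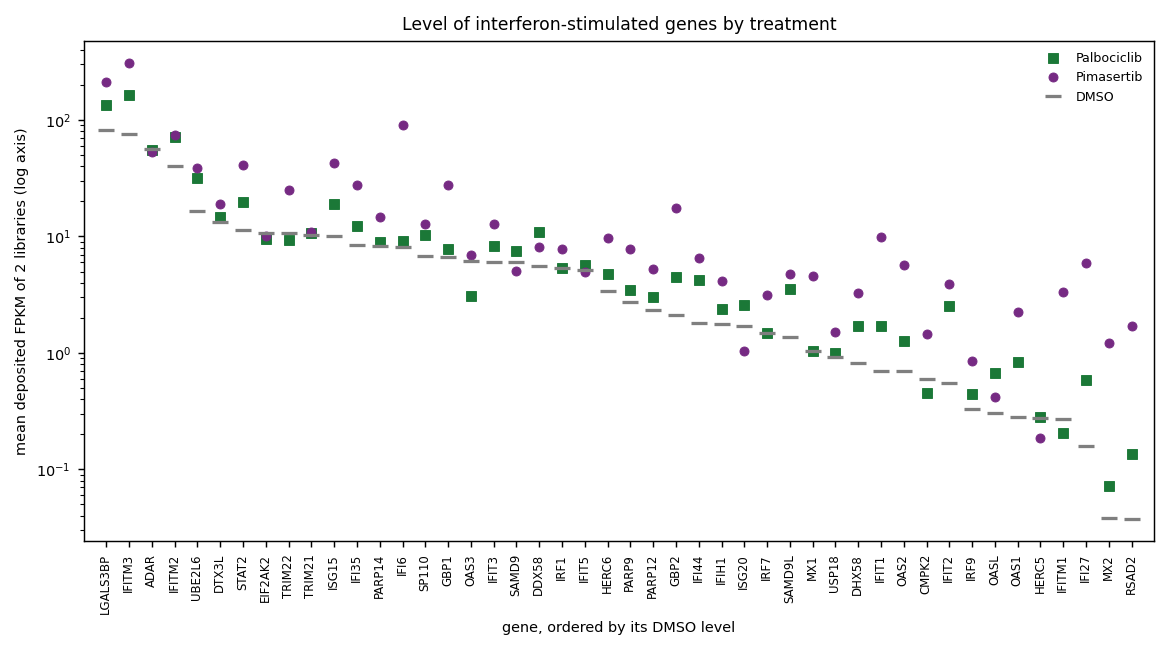
Mean deposited FPKM of 2 libraries on a log axis for 46 members in palbociclib (squares), pimasertib (circles) and DMSO (dashes), ordered by the DMSO level; BST2, IFI44L, EPSTI1 and XAF1 are left out because a group is at 0. The circles lie above the dashes across most of the range, with wide margins for IFI6, IFIT1, IFI27, MX2 and RSAD2.

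Replicates of a group differed for some members in the same way in all 3 groups. LGALS3BP was 2.30, 1.52 and 2.33 times as high in replicate 2 as in replicate 1 of palbociclib, pimasertib and DMSO, and IFI6 1.91, 1.58 and 3.70 times. These were the 2 members more than 1.5 times higher in replicate 2 throughout. In all, 9 of the 47 were higher and 14 lower in replicate 2 of every group. The share among all genes was not counted, so these counts do not set the members apart.

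Many members are neighbours, and neighbours often differed in whether they were called, a difference that was not itself tested. With gaps of at most 200000 bases, 25 of the 50 fell into 10 groups on GRCh37. In the IFIT group on chromosome 10 (91061712 to 91180758), 3 of 4 genes rose in pimasertib, and in the IFITM group on chromosome 11 (307631 to 327537) all 3 did, IFITM1 with the limits given above. The 2 MX genes on chromosome 21 and the 2 GBP genes on chromosome 1 rose as pairs, with MX2 tested only through the pimasertib libraries. In the other 6 groups, at least 1 gene was not called beside a neighbour that was. These were OAS3 between OAS1 and OAS2, DTX3L between PARP9 and PARP14, HERC5 beside HERC6, and SAMD9 beside SAMD9L. The others were CMPK2 beside RSAD2, which reached the count minimum only with the pimasertib libraries, and the untested IFI44L beside IFI44.

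The pathway above these genes was followed in a list of 66 genes, of which 46 were in the tables and 39 were tested. The list held ligands, receptors, kinases, factors, sensors and regulators, and also 10 genes of nucleic acid clearance and DNA methylation. Interferon genes were hardly detected. IFNE, the 1 ligand with enough counts, was at 0 and 0.672 CPM in palbociclib, 0.634 and 1.49 CPM in pimasertib and 1.03 and 0.338 CPM in DMSO, and the groups overlapped. IFNA5, IFNA8, IFNW1 and IFNL3 had at most 3 counts in any library, and the other 16 ligands of the list were not found in the deposited tables.

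Pimasertib raised 2 of the 39 pathway genes and lowered 5, a smaller share than the 11.1% of all tested genes that were higher and a share near the 11.7% that were lower. IL10RB, a receptor chain shared by interferon lambda and interleukin 10, was at 10.8 and 12.3 CPM in palbociclib, 32.7 and 44.1 CPM in pimasertib and 11.5 and 14.7 CPM in DMSO, and rose by 1.55 in pimasertib (SE 0.24; adjusted p = 0.00177). TLR3, the endosomal receptor of double-stranded RNA, was at 4.18 and 4.37 CPM in palbociclib, 16.6 and 21.9 CPM in pimasertib and 5.35 and 9.13 CPM in DMSO. Pimasertib was well above the other groups for both genes, and TLR3 rose by 1.41 (SE 0.31; adjusted p = 0.00961), a call that ended without DMSO replicate 1 (0.0610) or pimasertib replicate 2 (0.105). Both were also lower in palbociclib than in pimasertib, IL10RB by a log2 difference of -1.73 (SE 0.25; adjusted p = 0.00155) and TLR3 by -2.17 (SE 0.32; adjusted p = 0.00201). They were the 2 of the 39 pathway genes called there, a share near the 5.07% of all tested genes that were lower.

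The 5 that fell in pimasertib were UHRF1, RNASEH2A, DNMT1, CGAS and SOCS3. Of these, UHRF1, RNASEH2A and DNMT1 belong to the nucleic acid clearance and DNA methylation part of the list. UHRF1, which guides DNA methylation to new strands, was at 33.4 and 39.0 CPM in palbociclib, 40.2 and 38.3 CPM in pimasertib and 141 and 111 CPM in DMSO. It fell in both drugs, with -1.80 in palbociclib (SE 0.21; adjusted p = 0.00202) and -1.68 in pimasertib (SE 0.21; adjusted p = 0.000530). DNMT1, the methyltransferase it guides, was at 212 and 206 CPM in palbociclib, 204 and 180 CPM in pimasertib and 458 and 369 CPM in DMSO, with -0.99 in palbociclib (SE 0.22; adjusted p = 0.0400) and -1.11 in pimasertib (SE 0.23; adjusted p = 0.00676). Its palbociclib call held in 1 of the 6 fits that left out a library, and its pimasertib call ended without pimasertib replicate 2 (0.0821).

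CGAS, the sensor of cytosolic DNA, was at 5.13 and 2.91 CPM in palbociclib, 4.49 and 2.98 CPM in pimasertib and 13.7 and 6.43 CPM in DMSO. It fell by 1.43 on the log2 scale in pimasertib (SE 0.44; adjusted p = 0.0407), which ended without DMSO replicate 1 (0.370), pimasertib replicate 1 (0.0984) or pimasertib replicate 2 (0.257), with limma-voom (0.0566), with a stricter filter (0.0555) and with upper-quartile scaling (0.0689). Without DMSO replicate 1 the log2 fold change was -0.78. RNASEH2A, which removes RNA from DNA, had -1.17 in pimasertib (SE 0.23; adjusted p = 0.00524), which ended without pimasertib replicate 2 (0.0660). SOCS3, a feedback inhibitor of JAK kinases, had -0.83 (SE 0.24; adjusted p = 0.0344), a call that held in 2 of 6 such fits and ended with DESeq2 (0.0560) and upper-quartile scaling (0.0757). UHRF1 and DNMT1, both of the clearance and methylation part, were the 2 genes of the list called in palbociclib. Both were lower there and 0 rose, beside the 1.11% and 2.44% of all genes higher and lower. The median log2 fold change of the 39 was -0.08 in palbociclib and 0.15 in pimasertib.

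The chains of the type I and gamma receptors, JAK1 and TYK2 did not pass in either drug by the edgeR test used throughout. IFNAR1 had log2 fold changes of -0.18 in palbociclib (adjusted p = 0.738) and 0.34 in pimasertib (adjusted p = 0.301), and IFNAR2 of 0.45 (0.492) and 0.76 (0.0973). For interferon gamma, IFNGR1 was at 14.4 and 26.5 CPM in palbociclib, 33.0 and 38.8 CPM in pimasertib and 12.8 and 25.3 CPM in DMSO, with 0.92 in pimasertib (SE 0.35; adjusted p = 0.0857; past the threshold in 6 of 14 alternative fits), and IFNGR2 had -0.19 there (adjusted p = 0.551). JAK1 was at 171 and 142 CPM in palbociclib, 221 and 176 CPM in pimasertib and 136 and 108 CPM in DMSO, with 0.70 in pimasertib (SE 0.23; adjusted p = 0.0537). It passed in 9 of 14 alternative fits, 1 of them a fit without a library, so its side of the threshold depends on the fit. TYK2 had 0.09 in pimasertib (adjusted p = 0.786).

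Downstream of the sensors, MAVS and STING1 overlapped DMSO in both drugs, and IRF3 had 0.16 in palbociclib (adjusted p = 0.729) and 0.51 in pimasertib (adjusted p = 0.0896).

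A further 50 genes known to respond to interferon, outside the 50 members, were read for comparison, with 48 in the tables and 40 tested. In pimasertib 15 were higher and 1 was lower than in DMSO, with a median log2 fold change of 0.54, beside 11.1% of all tested genes higher and 11.7% lower. Fewer than these 16 calls were made when DMSO replicate 1 or either pimasertib library was left out. Calls among all tested genes also became fewer there. In palbociclib 0 were called by edgeR, with 7 higher and 2 lower at an unadjusted p under 0.05, 1 call by DESeq2 and 0 by limma-voom, and the median was 0.23. The share of all genes at that unadjusted threshold was not counted. C1R and C1S, the proteases that start the classical complement pathway, had the smallest adjusted p. C1R reached the count minimum, near 0.617 CPM, in enough libraries only through pimasertib, so it could hardly fail to differ. The counts and median of this list were not recomputed without genes of that kind. C1R was at 0.440 and 0.896 CPM in palbociclib, 26.0 and 37.3 CPM in pimasertib and 0.182 and 0.541 CPM in DMSO, a log2 fold change of 6.45 in pimasertib (SE 0.48; adjusted p = 3.6e-05), or 5.85 without DMSO replicate 1 and 7.38 without DMSO replicate 2. C1S was at 6.01 and 9.63 CPM in palbociclib, 105 and 147 CPM in pimasertib and 1.64 and 4.13 CPM in DMSO, a log2 fold change of 5.46 (SE 0.42; adjusted p = 4.6e-05), or 6.25 without DMSO replicate 2.

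APOL1, a secreted trypanosome-killing factor, rose by 2.23 in pimasertib (SE 0.36; adjusted p = 0.00216), and the helicase-like genes DDX60 and DDX60L by 1.41 (SE 0.21; adjusted p = 0.00122) and 1.61 (SE 0.25; adjusted p = 0.00150). SHFL, an inhibitor of ribosomal frameshifting, rose by 1.94 (SE 0.41; adjusted p = 0.00805), and ended without pimasertib replicate 1 (0.0513) or replicate 2 (0.0634). APOBEC3F, a cytidine deaminase, rose by 0.97 (SE 0.24; adjusted p = 0.0182) and APOL6 by 0.95 (SE 0.25; adjusted p = 0.0207), in 2 and 3 of 6 fits without a library. MLKL, the executor of necroptosis, fell, at 60.1 and 38.8 CPM in palbociclib, 18.8 and 17.1 CPM in pimasertib and 80.9 and 52.5 CPM in DMSO. Palbociclib overlapped DMSO, and pimasertib lay below both, at -1.89 against DMSO (SE 0.28; adjusted p = 0.00123).

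Between the drugs, 7 of these 40 were lower in palbociclib than in pimasertib, where 5.07% of all genes were lower. Among them were C1R at -5.51 (SE 0.44; adjusted p = 6.5e-05; -6.14 without palbociclib replicate 2), C1S at -4.00 (SE 0.38; adjusted p = 0.000155) and DDX60 at -1.28 (SE 0.21; adjusted p = 0.00354). The limit on C1R given above holds here too. Fewer of the 8 calls in either direction held when either pimasertib library was left out, and calls among all tested genes also became fewer. MLKL was the 1 that was higher in palbociclib, at 1.46 (SE 0.28; adjusted p = 0.00853), a call that held in 4 of 6 fits without a library.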

How the data were processed

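RNA sequencing libraries of HT-1080 cells were compared between palbociclib, pimasertib and DMSO, with 2 libraries per group. DESeq2, HTSeq 0.6.1, STAR 2.5 and CASAVA, and the builds hg19 and GRCh37, are listed per the submitters' processing notes. Strand settings are not given in the sources used here. Per the file headers, the authors deposited 1 table per drug with raw counts per gene, FPKM and, for their own comparison, log2 fold changes with raw and adjusted p-values. The authors' group columns hold signal values that look like means of scaled counts, and they were not used. The deposited FPKM described levels between genes, counted members above 1 FPKM and gave the plotted group means, with no test, and the authors' log2 fold changes and p-values only to count their calls. The DMSO counts were the same in both tables, and a gene missing from 1 table was counted as 0 there.

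The deposited counts went into edgeR 4.0.16 (R 4.3.3), in 1 model of 3 groups over all 6 libraries. Genes passed filterByExpr (minimum count 10, minimum total 15), which left 14839, and libraries were scaled by TMM. The test (glmQLFit, robust, and glmQLFTest) was tried on simulated data first. The standard error is the absolute log2 fold change divided by the square root of F. Alternatives were DESeq2 1.42.0, limma-voom (limma 3.58.1), other scalings and filters, fits on 4 libraries, a replicate block and leaving out each library. Fits that left out a library or used 4 kept the 14839 genes, and a group left with 1 library was assumed to vary like the others. Statements of at least a fold use a floor of 3 counts per library, which covers counting error only, since PCR copies are not independent molecules.

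The members and lists were chosen with earlier results of these data known. All members could be named. Of the pathway list and the further interferon-responsive genes, up to 8 called genes per direction and comparison were named, with ligands, receptors and main signalling genes whatever their value. IFNAR2 stood for 2 identifiers, and the one with more counts was used. Gene positions are those of the tables (GRCh37), and promoters are from RefSeq (GRCh38.p14). A result of the pathway list is not reported here.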

Additional observations from a re-analysis of the deposited data

How the results depend on the processing

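Members higher in pimasertib than in DMSO numbered 21 to 33 over the alternatives without a block, and 21 of the 30 calls held in every one that tested them. The palbociclib count of 5 against DMSO was 2 in the fit on 4 libraries, 9 with DESeq2, 13 with no filter and 1 to 7 when a library was left out. Between the drugs the count of 19 was 8 to 21 when a library was left out. For the pathway list the counts without a library were 1 to 3 (palbociclib against DMSO), 2 to 10 (pimasertib against DMSO) and 2 to 5 (between the drugs), with 1 in the palbociclib fit on 4 libraries and 4 between the drugs with no filter. For the further interferon-responsive genes they were 0 to 2, 6 to 19 and 3 to 10, and in palbociclib DESeq2 called 1 and no filter 2. Upper-quartile scaling moved the median of all genes in pimasertib against DMSO to 0.124 on the log2 scale, and no filter to 0.113. The cause of these shifts was not tested.

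The replicate numbers may or may not mark shared cultures. Differences between replicates 2 and 1 correlated across genes between groups, at r = 0.398 (palbociclib and DMSO), 0.351 (pimasertib and DMSO) and 0.345 (palbociclib and pimasertib), and genes are not independent. With the replicate number as a block, the calls were 17 (palbociclib against DMSO), 37 (pimasertib against DMSO) and 33 (between the drugs) for the members, 6, 19 and 9 for the pathway list, and 9, 26 and 15 for the further genes. Among all tested genes the block called 19.9%, 44.1% and 31.7%, so calls rose in number among genes in general.

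No called member changed sign in any alternative. Of the 141 pairs of a tested gene and a comparison, 28 changed sign in some alternative, with 0 of them called. Leaving out a library, the log2 fold changes of palbociclib against DMSO ran from -0.34 to 0.23 for ADAR, -0.39 to 0.31 for HERC5, -0.53 to 1.36 for IFI6, -0.084 to 0.31 for IFIT5, -1.89 to 4.47 for IFITM1, -0.14 to 0.029 for IRF1, -0.12 to 0.069 for IRF7, -0.041 to 1.38 for LGALS3BP, -0.33 to 0.28 for MX1, -1.01 to 1.61 for MX2, -0.012 to 0.58 for SAMD9, -0.17 to 0.21 for TRIM21, -0.64 to 0.11 for TRIM22 and -0.64 to 0.58 for USP18. Those of pimasertib against DMSO ran from -0.40 to 0.17 for ADAR, -0.24 to 0.024 for EIF2AK2, -1.75 to 0.063 for HERC5, -0.58 to 0.25 for IFIT5, -0.23 to 2.10 for IRF9, -0.10 to 0.44 for OAS3 and -0.093 to 0.17 for TRIM21. Those of palbociclib against pimasertib ran from -0.20 to 0.29 for ADAR, -0.23 to 0.034 for EIF2AK2, -0.064 to 1.76 for HERC5, -0.14 to 0.68 for IFIT5, -0.42 to 0.20 for IFITM2, -1.72 to 0.63 for IRF9 and -0.21 to 0.13 for TRIM21. Upper-quartile scaling gave 0.0703 for HERC5, 0.0079 for IRF1, 0.0333 for IRF7 and 0.0043 for MX1 in palbociclib against DMSO, and 0.0020 for EIF2AK2 and 0.0076 for IFIT5 in pimasertib against DMSO. HERC5 in palbociclib had 0.0107 in the fit on 4 libraries, 0.0186 with RLE scaling and 0.0207 with no filter, and limma-voom gave 0.41 for IFITM1, -0.0044 for TRIM21 and -0.12 for USP18 there. Counts of a few reads, as for HERC5, IRF9, IFITM1 and MX2, limit what these depths can show.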
